A study of Mus musculus with 14 samples.

Results

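The genes described here encode the proteins that carry the interleukin-1 (IL-1) signal from its receptor towards NF-κB and the MAP kinases. They are the adaptor Myd88, the IL-1 receptor-associated kinases Irak1, Irak2, Irak3 and Irak4, the TNF receptor-associated factors Traf1, Traf2 and Traf6, the receptor-binding protein Tollip and the kinase Map3k8. The 10 genes were chosen by name for their place in the pathway, with earlier results of these data known, and each was found once among the 55487 genes of the count tables. RNA was sequenced from 14 libraries in 6 groups. LK cells (Lin-c-kit+) and LSK cells (also Sca1+) were sorted from the bone marrow of mice with a heterozygous Jak2V617F knock-in allele and the Mx1Cre transgene, which had been induced with pI-pC. Marrow of the induced animals was transplanted into lethally irradiated wild-type C57BL/6 mice. From 4 weeks after transplantation the recipients received PBS or IL-1β (0.5 μg per dose, 3 doses per week) for 16 weeks. Mx1Cre is driven by an interferon-inducible promoter and is not restricted to blood cells. Mice were used at 6 to 8 weeks of age, and every LSK and LK library, controls included, carries the mutant allele in its donor cells. Each of the LSK and LK populations had 3 PBS and 2 IL-1β libraries. Mesenchymal stromal cells (MSC) were grown for 21 days from the marrow of wild-type C57BL/6 mice and treated with PBS or 5 ng/ml IL-1β for 72 hours, with 2 libraries for each treatment. Nothing in the labels ties a library to an animal or culture, so the p-values measure the spread between these libraries, which may be technical.

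When IL-1 binds, its receptor pairs with the accessory chain Il1rap, and their intracellular TIR domains recruit Myd88. Myd88 gathers Irak4, which activates Irak1 and Irak2, and these engage the ubiquitin ligase Traf6, which leads to activation of the TAK1 and IKK complexes. Irak3 (IRAK-M) and Tollip are best known as brakes on this route, Irak3 chiefly in monocytes and macrophages. Traf2 and Traf1 act mainly at TNF family receptors, and Traf1 is itself a well known NF-κB target gene. Map3k8 (TPL2, also called Cot) is released when IKK acts on its partner p105 and then feeds the ERK cascade.

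The libraries held 4393233 to 30871055 counted read pairs. Both IL-1β libraries of LSK and of LK cells were shallower than every PBS library of their population, so depth and treatment cannot be told apart there. In the LSK PBS group replicate 2 stood apart, with 15360 genes detected against 18056 and 18023. The markers of LSK and LK cells went with their labels: 11 of 12 stem and progenitor markers were higher in LSK and 10 of 10 erythroid markers were lower in LSK than in LK under PBS. The cultures labelled MSC held a mixture of markers. Their 12 macrophage markers, among them Csf1r, Adgre1 and Ptprc, summed to 13507 to 17552 CPM with PBS and to 34186 to 35050 CPM with IL-1β. Their 12 mesenchymal markers summed to 1583 to 3040 CPM with PBS and 4069 to 4568 CPM with IL-1β, and Lepr was at 0 in the PBS libraries. CPM are read-pair counts relative to library size, scaled by TMM, here within each population.

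In MSC cultures IL-1β raised Irak3, Traf1, Map3k8 and Traf2, which were 4 of the 10 genes, and lowered none. A gene was called when edgeR's quasi-likelihood test gave a Benjamini-Hochberg adjusted p under 0.05 over all genes and the log2 fold change was above 0.5 in size. By this rule 7.14% of the 13239 genes tested were called higher and 4.31% lower (945 and 570 genes, or 817 and 831 with upper-quartile factors). For the lower direction, 0 of the 10 genes had an unadjusted p under 0.05 and DESeq2 called 0. The 10 genes had a median log2 fold change of 0.39, against 0.00 for all genes tested. The study reported by RT-qPCR that IL-1β markedly raised Myd88 transcripts in MSC. It presented this as a follow-up of the same RNA sequencing, so the direction of Myd88 in these libraries is not independent evidence.

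Irak3 showed the largest rise of the 10 genes in MSC cultures. It was measured at 16.7 and 12.05 CPM in the PBS replicates 2 and 3, and at 36.8 and 37.4 CPM in the IL-1β replicates 1 and 2. Both IL-1β values lay above both PBS values, and the IL-1β libraries were the closer pair. The fitted change was 2.63-fold (log2 1.40 ± 0.18 SE, n = 2 and 2, edgeR adjusted p = 0.0102), which exceeded the change of 96.2% of the genes tested. Irak3 lies on the minus strand of chromosome 10 (chr10:120141648-120202130, GRCm38), and no other gene overlaps it on that strand.

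Irak3 and Traf1 are shown here by their promoters, since these 2 genes had the largest changes in MSC cultures. RefSeq places 2 start sites for Irak3. The windows run from 200 bases before the start site to base 20 of the transcript, in the direction of transcription (GRCm38.p6). Capitals mark a match to TTGCNNAA, the core motif of C/EBP factors, which here reads on the opposite strand.
Irak3 outer start, chr10:120202111-120202330, minus strand: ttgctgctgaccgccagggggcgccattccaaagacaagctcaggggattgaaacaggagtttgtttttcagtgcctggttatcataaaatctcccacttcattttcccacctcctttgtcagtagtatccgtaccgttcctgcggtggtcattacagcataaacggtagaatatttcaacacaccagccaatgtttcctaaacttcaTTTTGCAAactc
Irak3 inner start, chr10:120201578-120201797, minus strand: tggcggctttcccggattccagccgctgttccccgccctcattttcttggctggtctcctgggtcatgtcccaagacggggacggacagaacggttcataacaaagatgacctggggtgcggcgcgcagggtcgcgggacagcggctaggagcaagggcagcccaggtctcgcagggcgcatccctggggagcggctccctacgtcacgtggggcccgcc
Traf1, chr2:34961753-34961972, minus strand: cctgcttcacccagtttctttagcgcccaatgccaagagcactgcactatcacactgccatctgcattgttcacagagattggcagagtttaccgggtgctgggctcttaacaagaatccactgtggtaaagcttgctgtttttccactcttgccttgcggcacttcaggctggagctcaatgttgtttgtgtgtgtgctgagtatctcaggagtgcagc

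The outer Irak3 window and the Traf1 window were the poorest in G and C of the 11 RefSeq windows that matched 9 of the genes, and the inner Irak3 window was the richest. Map3k8 had no window. A link between G and C content and the response was not tested. Over the full 300 bases, which run to base 50 of the transcript, 46.7% of the outer Irak3 window and 48.7% of the Traf1 window were G or C, against 67.3% for the inner Irak3 window and a median of 52.7% over all 32851 windows. They held 8 and 4 CpG dinucleotides, and the inner Irak3 window held 26. Both strands of the 300 bases were searched for 3 motifs. TTGCNNAA matched the opposite strand of the outer Irak3 window from base 9 to 16 after the start site, where the printed strand reads TTTTGCAA in capitals. It matched 10.8% of all windows. The NF-κB consensus, present in 8.46% of all windows, was found among these genes in the windows of the 2 close start sites of Irak1 (GGGACGCCCC). The AP-1 motif TGANTCA, present in 7.81% of windows, matched 0 of the 11. A match is a match of letters only, and its absence covers these windows only.

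Traf1 and Map3k8, both low in the PBS cultures, rose as well. Traf1 was measured at 4.17 and 5.12 CPM with PBS and at 8.59 and 9.88 CPM with IL-1β. Map3k8 was measured at 12.7 and 9.26 CPM with PBS and at 19.4 and 19.1 CPM with IL-1β. In both genes every IL-1β library lay above every PBS library. The fitted changes were 1.95-fold for Traf1 (log2 0.96 ± 0.23 SE, edgeR adjusted p = 0.0491) and 1.78-fold for Map3k8 (log2 0.84 ± 0.20 SE, edgeR adjusted p = 0.0482).

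Traf2 and Myd88 changed by similar amounts on the 2 sides of the fold threshold. Traf2 went from 19.7 and 22.2 CPM with PBS to 30.5 and 31.1 CPM with IL-1β, a 1.46-fold rise (log2 0.55 ± 0.13 SE, edgeR adjusted p = 0.0482). Myd88 had 79.4 and 72.5 CPM with PBS and 106 and 108 CPM with IL-1β, with no overlap between treatments. Its fitted change was 1.41-fold (log2 0.50 ± 0.10 SE, edgeR adjusted p = 0.0346), so it passed the adjusted p and lay just under the fold threshold. The span of Myd88 (chr9:119335934-119341411, minus strand) overlaps that of Slc22a14 on the same strand, and read pairs that fell on exons of both genes were not counted. The spans of Irak1 (Mir5132 and Mir718) and Irak2 (Gm43912) also overlap genes on their strand. Whether exons overlap was not examined.

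The kinases next to Myd88 in the pathway and the ligase Traf6 did not pass the test in MSC cultures. Irak4 had 41.5 and 50.01 CPM with PBS and 56.5 and 56.2 CPM with IL-1β (log2 0.29 ± 0.13 SE, edgeR adjusted p = 0.184). Irak2 lay between 67.7 and 74.1 CPM in the 4 cultures (log2 0.08 ± 0.10 SE). Irak1 differed more between the PBS cultures, at 91.5 and 129 CPM, than between treatments (log2 0.16 ± 0.17 SE). Traf6 (log2 -0.09 ± 0.12 SE) and Tollip (log2 -0.19 ± 0.13 SE) were the only ones of the 10 genes with IL-1β values below all PBS values. The IL-1β libraries lay above the PBS libraries in 7 of the 10 genes and below them in 2, where 31.3% and 29.8% of all genes tested did so.

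The 4 calls in MSC cultures rest on few libraries and move with the scaling. Leaving out any MSC library leaves 1 library in a group, so the spread in such fits comes from the pair left in the other group. The IL-1β libraries were the closer pair (Pearson r = 0.993 over log2 CPM, against 0.961 for PBS). Over all genes, calls rose without either PBS library and fell without either IL-1β library. Calls kept or lost in those fits therefore depend on which pair is left. Over those fits and the other scalings, filters and tests, the log2 fold change was 1.16 to 1.63 for Irak3 and 0.84 to 1.13 for Traf1. It was 0.61 to 1.07 for Map3k8 and 0.48 to 0.65 for Traf2. DESeq2 called Irak3 and Map3k8, and upper-quartile scaling called Irak3 alone. In the same cultures 7 of 12 macrophage markers were called higher, with a median log2 fold change of 0.88 over the list, as were 2 of 11 mesenchymal markers tested (median 0.40). Their part in the rise of these genes was not tested. In bulk RNA, more cells of a type and more RNA per cell cannot be told apart.

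**Figure D1:**
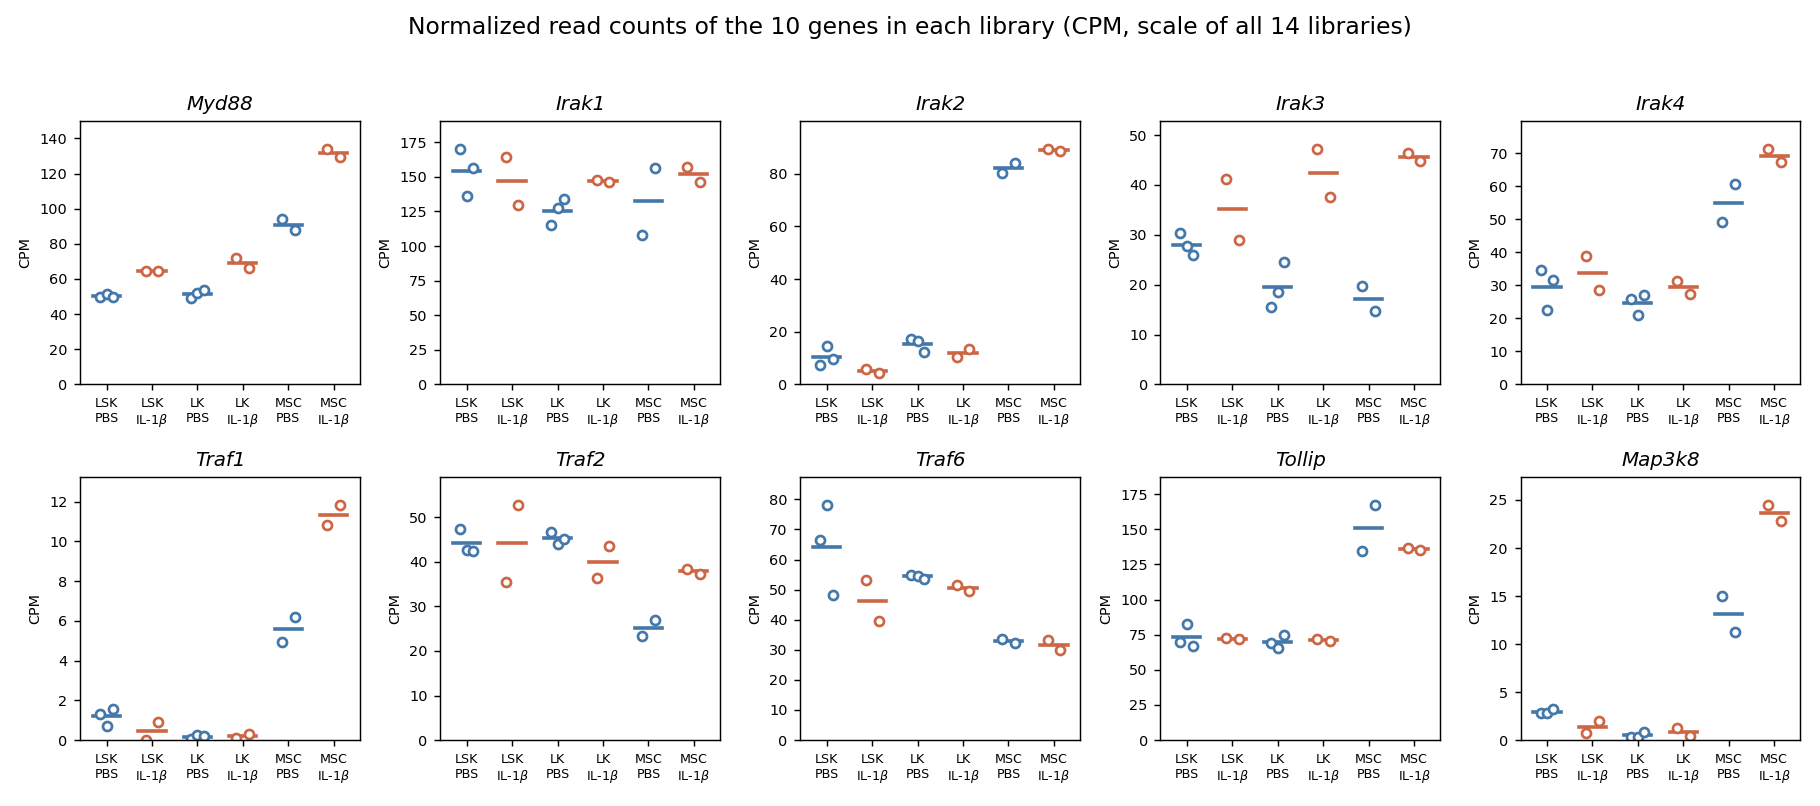
Each panel plots 1 gene, with CPM on the scale of all 14 libraries on the y axis and the 6 groups on the x axis. Points are libraries (blue PBS, orange IL-1β) and bars are group means. Irak3 reached 46.4 and 44.8 CPM in the MSC cultures with IL-1β against 19.7 and 14.6 CPM with PBS, and Irak2, Traf1 and Map3k8 were far higher in MSC than in LSK or LK cells.

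In LK cells Irak3 and Myd88 rose with IL-1β, which were 2 of the 9 genes tested, and none fell. Over all 12835 genes tested in LK, 6.77% were called higher and 2.57% lower. For the lower direction, 0 of the 9 had an unadjusted p under 0.05 and DESeq2 called 0. The 9 genes had a median log2 fold change of 0.30, against -0.03 for all genes.

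Irak3 was measured at 15.8, 19.0 and 25.4 CPM in LK cells with PBS and at 51.1 and 40.6 CPM with IL-1β. Every IL-1β value was above the highest PBS value. The fitted change was 2.29-fold (log2 1.19 ± 0.21 SE, n = 3 and 2, edgeR adjusted p = 0.0132). Myd88 was tighter, at 50.4, 53.0 and 55.5 CPM with PBS and 78.3 and 71.5 CPM with IL-1β, again without overlap. Its fitted change was 1.42-fold (log2 0.50 ± 0.11 SE, edgeR adjusted p = 0.0270), a size that sits on the fold threshold.

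Irak1 and Irak4 also had both IL-1β libraries above all 3 PBS libraries of LK cells, but did not pass. Irak1 had 118, 130 and 139 CPM with PBS and 160 and 158 CPM with IL-1β (log2 0.30 ± 0.10 SE, edgeR adjusted p = 0.106). Irak4 had 26.4, 21.6 and 28.0 CPM with PBS and 33.9 and 29.7 CPM with IL-1β (log2 0.33 ± 0.17 SE, edgeR adjusted p = 0.259). In all, 4 of the 9 genes tested lay without overlap above PBS and 0 below, against 23.5% and 22.2% of all genes.

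Traf6, Traf2, Tollip and Irak2 overlapped between treatments in LK cells. Traf6 was the steadiest, between 53.6 and 56.0 CPM in all 5 libraries (log2 -0.03 ± 0.11 SE). Traf2 (log2 -0.11 ± 0.13 SE), Tollip (log2 0.10 ± 0.11 SE) and Irak2 (log2 -0.30 ± 0.23 SE) did not pass. Map3k8 had 4, 7 and 12 read pairs with PBS and 10 and 3 with IL-1β, so its change was poorly determined (log2 0.84 ± 0.82 SE). Traf1 had 1 to 5 read pairs in each LK library and was too low to be tested.

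The call of Irak3 in LK cells was kept in all 9 other settings with every library. It was lost without PBS replicate 2, where all-gene calls fell from 869 higher and 330 lower to 449 and 154. Leaving out an IL-1β library leaves 1 in that group, so a call lost there cannot be told apart from lost samples. The log2 fold change of Irak3 was between 1.00 and 1.40 in all of these fits. The call of Myd88 was lost in 4 of those 9 settings, upper-quartile scaling among them. It was also lost without PBS replicate 1 (502 higher and 125 lower over all genes) or PBS replicate 2. The log2 fold changes of Myd88 lay between 0.42 and 0.57. In the same LK libraries 8 of 11 neutrophil granule markers tested, such as Lcn2, S100a8 and Elane, were called higher (median log2 fold change 3.38), with sums of 4432 to 9598 CPM with PBS and 18315 to 21447 CPM with IL-1β, while Ly6g was at 0. Of 10 erythroid markers 3 were called lower (median log2 fold change -0.81). Their part in the rise of Irak3 and Myd88 was not tested.

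In LSK cells 0 of the 10 genes were called in either direction by edgeR. None had an unadjusted p under 0.05, and DESeq2 called 0. Of all 13132 genes tested, edgeR called only 0.32% higher and 0.312% lower, while DESeq2 called 410 genes higher and 481 lower. The typical coefficient of variation between libraries of a treatment was 0.377, against 0.183 in LK cells and 0.149 in MSC. Without PBS replicate 2, which stood apart, 280 genes were called higher and 200 lower, and still 0 of the 10. The 10 genes had a median log2 fold change of -0.05, against -0.06 for all genes.

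Myd88 was the only one of the 10 genes whose IL-1β libraries both lay above all PBS libraries in LSK cells. It had 55.0, 56.9 and 56.7 CPM with PBS and 71.9 and 72.1 CPM with IL-1β. The groups were tight and apart, yet with the spread shared over genes the fitted change did not pass (log2 0.36 ± 0.23 SE, edgeR adjusted p = 0.428). Of all genes tested, 18.2% lay without overlap above PBS and 21.4% below. Irak3 overlapped, with 33.6, 30.8 and 29.4 CPM with PBS and 45.6 and 32.5 CPM with IL-1β (log2 0.33 ± 0.28 SE, edgeR adjusted p = 0.557).

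Irak2 and Map3k8 lay below the PBS libraries in both LSK IL-1β libraries. Irak2 had 8.04, 16.0 and 10.8 CPM with PBS and 6.57 and 4.96 CPM with IL-1β (log2 -0.996 ± 0.493 SE, edgeR adjusted p = 0.308). Map3k8 had 3.14, 3.13 and 3.69 CPM with PBS, and 0.852 and 2.23 CPM with IL-1β, the latter from 7 and 9 read pairs (log2 -1.15 ± 0.86 SE, edgeR adjusted p = 0.499). Traf1 had 20, 10 and 30 read pairs with PBS and 0 and 4 with IL-1β, in libraries of smaller size (edgeR adjusted p = 0.590). A count of 0 in the IL-1β replicate 1 library allows up to 3 read pairs. The others were Irak1 (log2 -0.07 ± 0.24 SE), Irak4 (log2 0.19 ± 0.30 SE), Traf2 (log2 -0.01 ± 0.27 SE), Traf6 (log2 -0.47 ± 0.29 SE) and Tollip (log2 -0.02 ± 0.24 SE). In LSK cells 4 of 10 neutrophil granule markers tested were called higher with IL-1β (median log2 fold change 3.38).

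**Figure D2:**
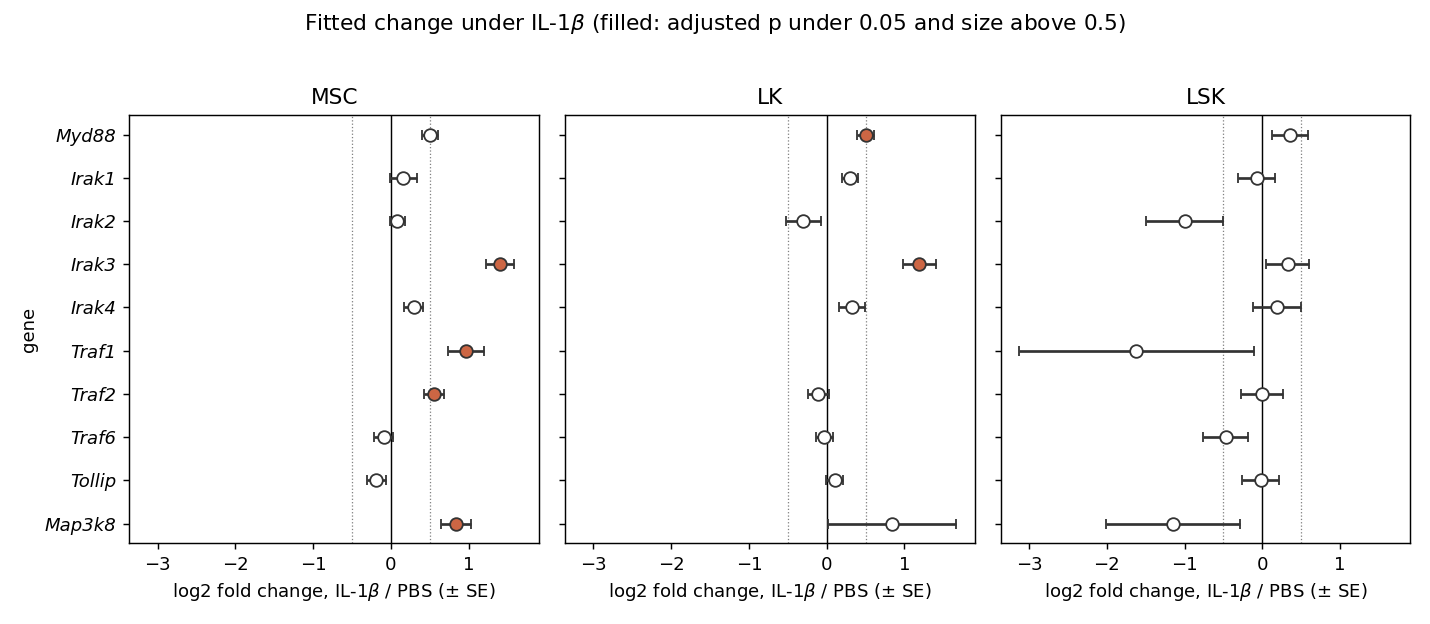
The x axis gives the fitted log2 fold change of IL-1β over PBS with its standard error, for each gene on the y axis, in MSC, LK and LSK. Filled points passed the test and dotted lines mark a size of 0.5. Irak3 passed in MSC (1.40) and LK (1.19) but not in LSK (0.33), and Traf1 was not tested in LK.

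Whether the response to IL-1β differed between the populations was tested directly as an interaction. Between LK and LSK cells 0 of the 10 genes were called, where 0.0217% of 13839 genes were higher and 0.00723% lower. Irak3 alone had an unadjusted p under 0.05 (log2 difference 0.90 ± 0.35 SE, edgeR adjusted p = 0.291). DESeq2 called 0 of the 10, and 218 genes higher and 116 lower over all genes. Its rise in LK and its missing call in LSK are therefore not shown to differ.

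Between MSC and LSK cells edgeR also called 0 of the 10 genes, against 5.37% higher and 3.9% lower of 15393 genes. Here Irak3 (log2 difference 1.09 ± 0.36 SE, adjusted p = 0.0702), Map3k8 (2.06 ± 0.73 SE, adjusted p = 0.0901), Irak2 (1.09 ± 0.41 SE, adjusted p = 0.108) and Traf1 (2.78 ± 1.21 SE, adjusted p = 0.165) had an unadjusted p under 0.05. Fitted within each population, Irak2 had log2 0.08 in MSC and -0.996 in LSK, neither called. In the LSK IL-1β libraries Traf1 had only 0 and 4 read pairs and Map3k8 only 7 and 9. DESeq2 called Irak3 and Map3k8, and over all genes it called 1168 higher and 1152 lower. The median difference over all genes was log2 0.15, and 0.03 with upper-quartile factors, so these values stand on a shifted centre. Between MSC and LK cells 0 of the 10 genes were called by edgeR or DESeq2. Of all genes edgeR called 1.24% higher and 0.799% lower, and DESeq2 called 313 genes higher and 351 lower. Traf2 alone had an unadjusted p under 0.05 (log2 difference 0.77 ± 0.28 SE, edgeR adjusted p = 0.245). MSC differed from the sorted cells in genotype, dose, time and culture, which cannot be told apart from cell type.

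**Figure D3:**
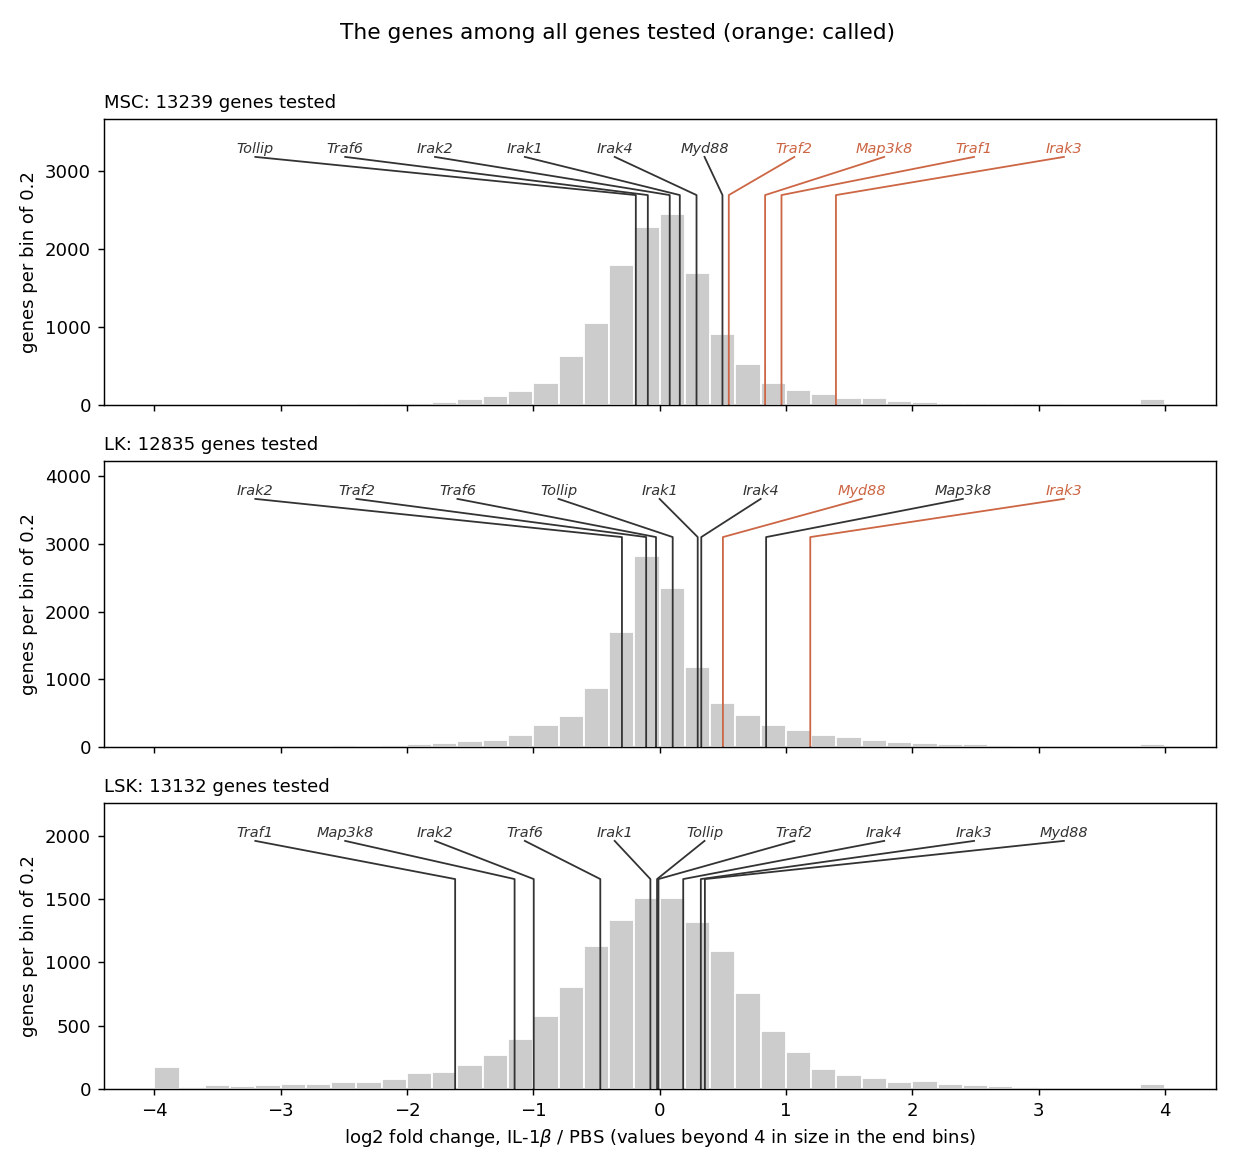
Grey bars count genes (y axis) in bins of the fitted log2 fold change of IL-1β over PBS (x axis) in MSC, LK and LSK, and lines mark the genes described here, orange where called. Irak3 lay above 96.2% of genes in MSC, 93.7% in LK and 71.6% in LSK.

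Under PBS, Irak3 and Map3k8 were higher in LSK than in LK cells, 2 of the 10 genes. None was lower, with 0 at an unadjusted p under 0.05 in that direction and 0 by DESeq2. Over 13839 genes, 19.4% were higher and 12.4% lower in LSK, so the 2 of 10 called higher are near the share over all genes. On the scale of all 14 libraries, Map3k8 had 2.85, 2.83 and 3.24 CPM in LSK and 0.312, 0.352 and 0.828 CPM in LK. All 3 LSK values lay above all LK values, a 6.42-fold difference (log2 2.68 ± 0.70 SE, edgeR adjusted p = 0.0121). The LK values came from 4, 7 and 12 read pairs, so the size of this fold is uncertain. Irak3 had 30.4, 27.8 and 25.9 CPM in LSK and 15.5, 18.6 and 24.5 CPM in LK, also apart, a 1.56-fold difference (log2 0.64 ± 0.22 SE, edgeR adjusted p = 0.0442).

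The call of Map3k8 was kept in all 8 other settings, while Irak3 lost its call in 3 of them and kept it without LSK PBS replicate 2, LK PBS replicate 3 or LSK IL-1β replicate 2 but with none of the other 7 libraries left out. Traf1 had 20, 10 and 30 read pairs in LSK with PBS and 1, 5 and 3 in LK, so its fitted difference was poorly determined. It missed the threshold (log2 2.77 ± 1.05 SE, edgeR adjusted p = 0.0615), as did Irak1 (log2 0.42 ± 0.16 SE, edgeR adjusted p = 0.0560). Without LSK PBS replicate 2, Irak1, Irak3, Irak4, Map3k8 and Traf1 were called higher and Irak2 lower in LSK. Without LK PBS replicate 1 or 2, none was. Traf1 was also called higher without either LSK IL-1β library, and Traf6 without LSK PBS replicate 3.

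Under IL-1β edgeR called 0 of the 10 genes between LSK and LK cells, against 2.13% higher and 2.27% lower of all genes (295 and 314, or 394 and 247 with upper-quartile factors). DESeq2 also called 0 of the 10, and 655 genes higher and 682 lower over all genes. Irak2 alone had an unadjusted p under 0.05 (log2 -1.17 ± 0.39 SE, edgeR adjusted p = 0.112), and it was called lower in LSK without LSK PBS replicate 2. Irak3, higher in LSK under PBS, had a log2 difference of -0.26 ± 0.28 SE under IL-1β.

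To compare genes with each other, CPM were divided by exon length in kilobases. In LSK and LK cells the order began with Irak1, Myd88 and Tollip in every group. In LK cells with PBS these had 26.6 ± 2.03, 20.02 ± 0.810 and 13.8 ± 0.877 CPM per kilobase (SD, n = 3). The libraries of these 3 genes did not overlap with each other in LSK or LK cells under either treatment. Next came Traf2, Traf6, Irak3 and Irak4, between 4.92 and 8.88 CPM per kilobase on average in LK with PBS. There Irak3 and Irak4 overlapped, and in LSK with PBS Traf2 overlapped with Traf6 and Traf6 with Irak3. Irak2 (3.48 ± 0.582), Map3k8 (0.110 ± 0.0638) and Traf1 (0.0203 ± 0.0102 CPM per kilobase) were the lowest in LK with PBS. With IL-1β, Irak3 rose from place 6 to place 4 in LK cells, at 11.5 ± 1.83 CPM per kilobase (SD, n = 2).

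MSC cultures had a different order. Myd88 led there with 35.3 ± 1.63 CPM per kilobase in PBS and 51.1 ± 1.23 in IL-1β (SD, n = 2). Irak2 was in place 4, at 18.6 ± 0.617 with PBS and 20.2 ± 0.0797 with IL-1β, whereas it was in place 8 of 10 in every LSK and LK group. Traf6 stood at 4.19 ± 0.134 with PBS, near the end of the order, with Irak3 (4.67 ± 0.983) and Traf2 (4.92 ± 0.509) overlapping in neighbouring places. With IL-1β Irak3 reached 12.4 ± 0.301 CPM per kilobase and lay above Traf2, and Map3k8 (5.25 ± 0.261) lay above Traf6 (4.01 ± 0.312). Traf1 was last in all 6 groups, at most 1.29 ± 0.0800 CPM per kilobase.

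**Figure D4:**
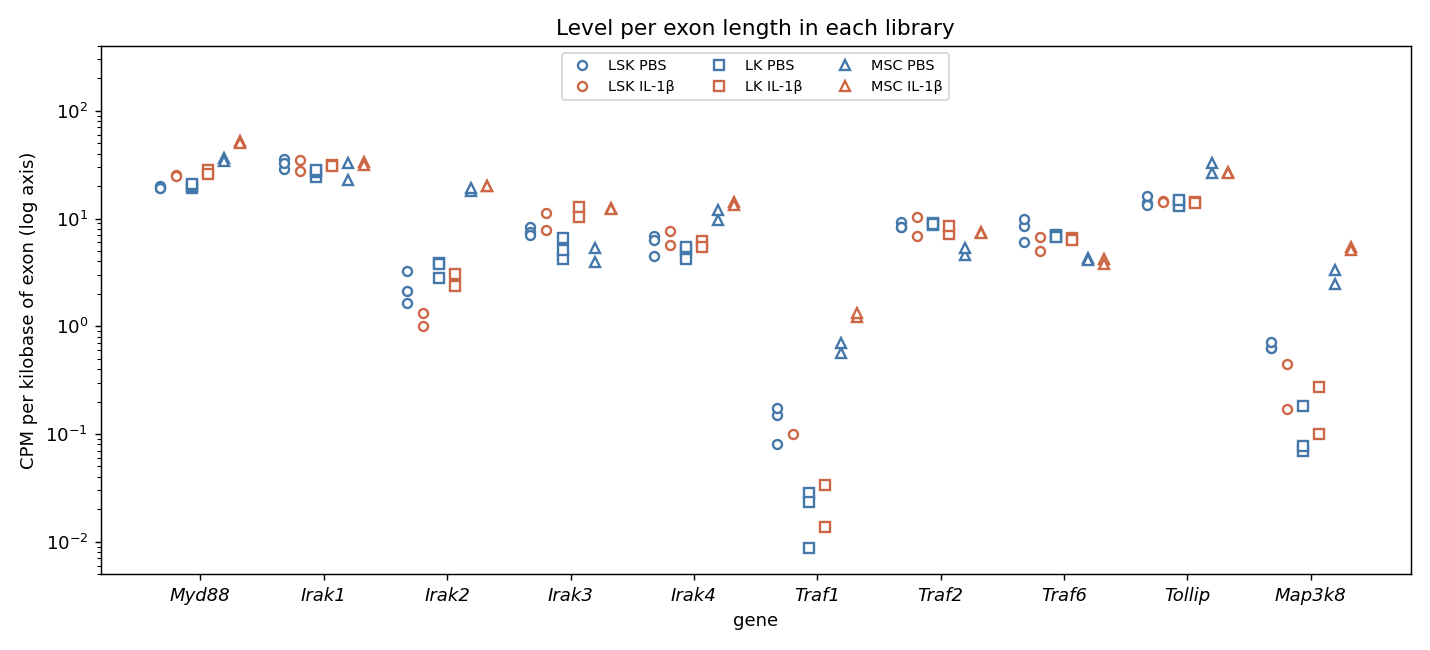
The y axis, a log axis, gives CPM per kilobase of exon for each gene on the x axis, and each point is a library (circles LSK, squares LK, triangles MSC, blue PBS, orange IL-1β). The LSK library with IL-1β in which Traf1 had 0 read pairs is not drawn. Irak1 stayed within a narrow band in all groups, and Irak2, Traf1 and Map3k8 separated MSC from LSK and LK.

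Across the 6 groups the means of log2 CPM spanned 4.63 for Map3k8, 4.13 for Traf1 and 3.99 for Irak2, with MSC under IL-1β the highest group for each. They spanned 0.29 for Irak1, the least of the 10. The 5 genes whose log2 CPM followed Map3k8 most closely over the 14 libraries, out of 15392, were Mdfic (Pearson r = 0.988), Smurf1 (0.983), Kif19a (0.983), Tbxas1 (0.982) and Mrgpre (0.981). Tbxas1 encodes thromboxane synthase and Smurf1 a ubiquitin ligase. The value at rank 100 was still 0.963, and the points fall into 3 populations prepared differently, so r mainly describes that division.

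The receptors and partners of these genes were described from 7 lists of 47 genes of the same pathway. In MSC cultures 7 of 43 tested were called higher with IL-1β (median log2 fold change 0.21), where 7.14% of all genes were. For the lower direction, 0 were called, 1 had an unadjusted p under 0.05 and DESeq2 called 0. The largest rise was in Birc3, a ubiquitin ligase that binds Traf2, from 28.1 ± 2.46 to 64.7 ± 0.425 CPM (log2 1.21 ± 0.12 SE, edgeR adjusted p = 0.00458). Tank, a Traf-binding adaptor, rose by log2 0.78 ± 0.12 SE and the deubiquitinase Usp25 by 0.69 ± 0.15 SE. The others were the ubiquitin ligases Peli1 and Peli2, which bind IRAK proteins, Rnf31 of the linear ubiquitin complex, and Mapk14, which encodes p38α. The receptor Il1r1 (log2 0.52 ± 0.28 SE, edgeR adjusted p = 0.277) and Il1rap (log2 0.27 ± 0.21 SE) did not pass.

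In LK cells 6 of 45 pathway genes were called higher with IL-1β and 1 lower (median log2 fold change 0.03), where 6.77% and 2.57% of all genes were. For the lower direction 7 had an unadjusted p under 0.05, and DESeq2 called 3. Il1rap, the accessory chain, rose from 14.3 ± 2.21 to 27.6 ± 4.59 CPM (log2 0.96 ± 0.20 SE, edgeR adjusted p = 0.0205). The decoy receptor Il1r2 had 2, 2 and 1 read pairs with PBS and 44 and 11 with IL-1β (edgeR adjusted p = 0.00779), and no fold is given for counts that low. Tirap, which bridges Myd88 to Toll-like receptors, rose by log2 0.73 ± 0.17 SE. Traf3 rose by log2 0.62 ± 0.11 SE, Peli2 by 1.21 ± 0.31 SE and the ERK kinase gene Map2k1 by 0.51 ± 0.13 SE. Tifa, which binds Traf6, fell by 0.75 on the log2 scale (SE 0.14, edgeR adjusted p = 0.0166).

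In LSK cells 0 of 43 pathway genes were called by edgeR (median log2 fold change -0.27). At an unadjusted p under 0.05 there were 1 higher and 4 lower, and DESeq2 called 1 lower, Il1r1. Il1r1 had 57.6 ± 8.76 CPM with PBS and 24.9 ± 11.7 CPM with IL-1β (log2 -1.20 ± 0.34 SE, edgeR adjusted p = 0.131).

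Between LSK and LK cells under PBS the receptor Il1r1 had the largest fitted difference of the pathway lists. There 9 of 45 pathway genes were higher in LSK and 7 lower, near the shares over all genes (19.4% and 12.4%). Il1r1 was 10.5-fold higher in LSK (log2 3.39 ± 0.31 SE, edgeR adjusted p = 2.46e-05) and the inhibitory receptor Sigirr 2.88-fold (log2 1.53 ± 0.27 SE, edgeR adjusted p = 0.00130). Peli1, Peli2, Birc3, Cyld, Tnip2, Ikbkg and Ticam2 were also higher. Traf4 was the lowest in LSK relative to LK (log2 -1.86 ± 0.22 SE, edgeR adjusted p = 0.000130), and Traf7, Tank, Tab3, Chuk, Map2k3 and Map2k4 were lower too. Under IL-1β Il1r1 was again higher in LSK (log2 1.48 ± 0.36 SE, edgeR adjusted p = 0.0425), and Traf4 and Traf7 were again lower.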

How the data were processed

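The authors trimmed the reads with fastp 0.20.0, aligned them with HISAT2 2.0.1 to GRCm38, and deposited counts of read pairs per gene without normalization. Per the file headers these were made with featureCounts 2.0.2 in reverse-stranded mode on Ensembl release 100 genes, which drops read pairs that map to several places or overlap several genes. The methods also name GenomicAlignments and DESeq2. A further IL-1β-treated MSC library named in a header was not analysed here.

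The 10 genes and all lists were chosen with earlier results of these data known. Every test was fitted over all genes with edgeR 4.0.16 under R 4.3.3 (TMM, filterByExpr, robust glmQLFit, glmQLFTest) and Benjamini-Hochberg adjustment. IL-1β was compared with PBS within a population, LSK with LK over their 10 libraries, and responses as interaction terms over the libraries of LSK and LK, or over all 14 where MSC was involved. SE is the size of the log2 fold change divided by the square root of F. Library totals ranged from 4393233 to 30871055, and intervals and floors cover counting error only. All pairs of libraries within a group differed by more than sampling noise (chi-square per degree of freedom 5.22 to 121).

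All 10 genes were named in each comparison. Of the pathway lists, genes called in a comparison were named, and otherwise the largest changes. Il1r1 and Il1rap in MSC, and Il1r1 in LSK, are also named as the receptors. The 5 genes most like the widest-ranging gene were ranked by Pearson r. Symbols came from GENCODE M21 (55141 of 55487 identifiers matched). The promoters are from RefSeq on GRCm38.p6, and the printed windows, motifs and the genes shown were chosen after the values were seen.

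Replicate numbers of LSK and LK libraries come from the sample titles. Over the 3 PBS pairs, the deviations of same-numbered libraries from their group means had r = 0.190, 0.115 and 0.446. Differently numbered PBS libraries had r from -0.357 to 0.152, and LSK replicate 2 was closer to LK replicate 1 (0.152) than to its own number (0.115). Only replicate 3 stood clearly apart. Over the 2 IL-1β pairs r was 0.0838, a single value, since 2 libraries deviate from their mean by opposite amounts. The alternatives were DESeq2 1.42.0, median-of-ratios (RLE) and upper-quartile factors, no filter, at least 10 reads in 2 libraries, adjusted p alone, thinning to the smallest library, the replicate block, LSK and LK fitted jointly, and each library left out. Scripts were tested on simulated data. Figures were drawn with matplotlib 3.10.9.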

Additional observations from a re-analysis of the deposited data

How the results depend on the processing

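Across 1043 values of single genes under the alternatives, 986 kept their side of the threshold, 42 lost a call and 15 gained one, and no called direction reversed. Among values called in neither setting the sign changed 58 times. In MSC, 4 genes were called higher in the reported fit, 2 with DESeq2 or RLE factors, 1 with upper-quartile factors, 2 after thinning, and 5 with no filter or with adjusted p alone, and 0 to 4 with a library left out. In LK, 2 were called higher in the reported fit, 1 with upper-quartile factors, no filter, the filter of 10 reads or the joint fit, and 0 to 2 with a library left out. For LSK against LK under PBS, 2 were higher in the reported fit, 1 with RLE factors, no filter or thinning, and 0 to 5 with a library left out, where 0 to 1 were lower. Under IL-1β 0 to 1 were lower with a library left out. For MSC minus LSK, 2 were called with DESeq2 and 1 with no filter, against 0. The cause was not tested, except that leaving out a library leaves fewer samples. The lone library of a group was then assumed to vary like the others. With the replicate block 2 genes were called in LK and 2 in LSK against LK under PBS, as without it, and it changed no call of the 10 genes. It raised all-gene calls in LK from 869 higher and 330 lower to 1462 and 869, in LSK from 42 and 41 to 314 and 388, and in the LK minus LSK difference from 3 higher to 23. MSC groups share a single number, so no block was fitted there. Over settings that kept every library, all-gene calls ranged from 817 to 1439 higher and 551 to 915 lower in MSC, 421 to 1462 and 68 to 869 in LK, 42 to 547 and 41 to 681 in LSK, 274 to 716 and 247 to 694 for LSK against LK under IL-1β, 0 to 228 and 1 to 170 for LK minus LSK, 663 to 1528 and 601 to 1152 for MSC minus LSK, and 130 to 386 and 123 to 351 for MSC minus LK. With a library left out they ranged from 38 to 2038 higher in MSC, 61 to 1499 in LK and 3 to 280 in LSK. The median log2 fold change of all genes moved from -0.06 to -0.26 in LSK and from -0.03 to -0.13 in LK with no filter. The median difference in response of all genes moved from 0.15 to 0.03 for MSC minus LSK and from 0.13 to -0.02 for MSC minus LK with upper-quartile factors, which turned their splits of higher and lower calls from 826 and 601 to 663 and 828, and from 191 and 123 to 150 and 180. Depth limits Traf1 and Map3k8 in LSK and LK, which had at most 63 read pairs in any library.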
